A study of Rattus norvegicus with 14 samples.

Results

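Voltage-gated calcium channels admit calcium into neurons when the membrane depolarises, and the transcripts of 10 of their subunit genes are described here in rat dorsal root ganglia. The 10 genes were chosen by name, as the rows whose gene symbol was Cacna1a, Cacna1b, Cacna1c, Cacna1d, Cacna1e, Cacna1h, Cacna2d1, Cacna2d2, Cacna2d3 or Cacnb3, out of 30562 genes in the tables. All 10 were found, each as a single row, and all 10 passed the filter on low counts in each comparison. The samples were lumbar ganglia L2 to L5 of 7 wild-type male rats, each of which had a free graft of the extensor digitorum longus muscle joined to the saphenous nerve of a hindlimb. Ganglia on the surgical side came from 4 rats at 8 weeks (D, C, G and H) and 3 rats at 6 weeks (A, B and E). Ganglia from the unoperated opposite hindlimb of the same rats formed the control groups, again 4 at 8 weeks and 3 at 6 weeks. The control ganglia thus came from operated animals. The labels give no age or strain of the rats, and they do not say whether the time was counted from the operation. Nothing in them states how many cells of each ganglion serve the grafted nerve.

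A voltage-gated calcium channel is built around a pore-forming alpha1 subunit, which opens with voltage and sets the current type. The alpha2delta subunits are largely extracellular, raise the number of channels at the cell surface and at presynaptic terminals, and include the binding sites of gabapentin and pregabalin. A cytoplasmic beta subunit binds the pore and assists its folding and trafficking. In sensory neurons, N-type and P/Q-type channels trigger transmitter release at the central terminals in the spinal cord, and T-type channels shape excitability. Raised Cacna2d1 in dorsal root ganglia is a well-known accompaniment of peripheral nerve injury in rats, which is background here and not a result of these data.

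Because the alpha2delta genes carry the main contrast described below, their promoters are shown first. RefSeq promoters on the GRCr8 build matched 9 of the 10 genes by symbol, and the 250 bases upstream of the annotated start are given, 5′ to 3′ on the strand of the gene. Capitals mark GC boxes, searched as GGGCGG on both strands with overlapping matches allowed. The window of Cacna2d1 lay at chr4:20330148-20330397 on the minus strand, that of Cacna2d2 at chr8:116950856-116951105 on the plus strand and that of Cacna2d3 at chr16:4918900-4919149 on the minus strand.

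Cacna2d1: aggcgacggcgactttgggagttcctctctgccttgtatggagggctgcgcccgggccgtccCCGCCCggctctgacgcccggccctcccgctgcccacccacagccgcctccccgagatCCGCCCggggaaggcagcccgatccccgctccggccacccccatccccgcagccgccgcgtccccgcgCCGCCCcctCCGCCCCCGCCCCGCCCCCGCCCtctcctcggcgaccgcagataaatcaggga
Cacna2d2: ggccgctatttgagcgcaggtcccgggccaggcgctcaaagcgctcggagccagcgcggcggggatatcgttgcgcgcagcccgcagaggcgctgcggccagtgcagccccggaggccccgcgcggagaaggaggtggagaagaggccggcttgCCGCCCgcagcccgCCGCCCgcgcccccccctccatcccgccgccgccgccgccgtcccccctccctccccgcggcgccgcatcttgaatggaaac
Cacna2d3: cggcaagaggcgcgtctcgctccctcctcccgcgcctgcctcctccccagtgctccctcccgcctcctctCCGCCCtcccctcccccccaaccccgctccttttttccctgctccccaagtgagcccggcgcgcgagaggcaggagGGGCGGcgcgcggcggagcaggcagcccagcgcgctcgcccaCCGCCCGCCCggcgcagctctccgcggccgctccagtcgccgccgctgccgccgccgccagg

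GC boxes were found 7 times upstream of Cacna2d1, 2 times upstream of Cacna2d2 and 4 times upstream of Cacna2d3, while 30.5% of 33469 RefSeq rat promoters of the same length held at least 1. All 3 windows were rich in G and C, at 77.2% for Cacna2d1, 76.8% for Cacna2d2 and 78.8% for Cacna2d3, where the median over all promoters was 51.2%. Cacna2d1 has 3 annotated starts, and the most upstream is the one shown. The windows of its other starts overlap each other and held the same 3 GC boxes, fewer than the window shown. An AP-1 site (TGANTCA, in 6.34% of promoters), a cAMP response element (TGACGTCA, 1.59%), an E-box (CACGTG, 5.59%) and a TATA box (TATAAA, 12.9%), also searched on both strands, had no match in these windows. Of the other members with a promoter, Cacna1a, Cacna1b, Cacna1d and Cacnb3 held GC boxes, and Cacna1c and Cacna1e did not.

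Total estimated counts ran between 18489118 and 28237574 per library. Markers of other tissues stood apart in a few libraries. A list of 14 skeletal muscle markers summed to 37947.6 TPM (transcript abundance scaled by length and library size) in the rat C surgical library, 6809.67 TPM in the rat H control library and 1544.63 TPM in the rat E surgical library, and to between 17.0 and 152.1 TPM in the other 11, with no muscle marker at 0 in any library. A list of 12 spinal cord and central glia markers summed to 1002.34 TPM in the rat B surgical library and to at most 28.1 TPM elsewhere. The 16 neuronal markers were detected throughout, with a mean log2 counts scaled to library size (CPM) of 5.29 to 8.37 in surgical libraries and 5.90 to 8.55 in control libraries. The lowest of these levels were in the rat A surgical library and the rat B control library. In bulk RNA, fewer neurons in a sample and less RNA per neuron cannot be told apart.

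Levels of different genes were compared as TPM. Cacnb3, the beta subunit tied to N-type channels in sensory neurons, was the most abundant member at a mean of 124.6 TPM over the 14 libraries. Cacna2d3 followed at 23.4 TPM, Cacna2d1 at 18.6 TPM and Cacna2d2 at 7.11 TPM. Among the pore genes, Cacna1a (P/Q-type) had 6.81 TPM, Cacna1b (N-type) 6.40 TPM, Cacna1h (T-type) 4.24 TPM and Cacna1c (L-type) 2.79 TPM. Cacna1d, the second L-type pore, had 0.731 TPM and Cacna1e (R-type) 0.163 TPM. The mean levels of neighbours in this order were often closer than their spread, as for Cacna2d3 (SD 13.3, n = 14) and Cacna2d1 (SD 11.8), for Cacna2d2 (SD 3.98) and Cacna1a, and for Cacna1a and Cacna1b (SD 3.87).

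Cacna2d1, whose protein is the main target of gabapentin, had 28.3, 22.0, 30.3 and 42.6 TPM in 8-week surgical ganglia of rats D, C, G and H, against 18.4, 23.7, 26.4 and 16.0 TPM in their control ganglia. In rats A, B and E at 6 weeks the surgical ganglia had 2.32, 12.0 and 22.2 TPM, and the control ganglia 3.58, 1.04 and 11.3 TPM. The surgical library was the higher in 5 of these 7 pairs by TPM, the exceptions being rats C and A, and the groups overlapped at both times. By log2 CPM, where rat C was 0.09 higher on the surgical side, 6 of 7 rats were higher. Over both times the edgeR log2 difference was 0.67 (SE 0.35, unadjusted p = 0.0892, adjusted p = 1), larger than 96.6% of the 17035 genes tested but not past the threshold. The value was 0.38 (SE 0.22) without rat B, and 0.30 (SE 0.26) without rats B, C and H.

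Cacna2d3, an alpha2delta subunit linked to heat pain sensitivity in flies and mice, had 30.5, 12.7, 30.2 and 39.2 TPM in 8-week surgical ganglia of rats D, C, G and H, against 39.7, 33.3, 42.1 and 23.8 TPM in control ganglia. The 6-week surgical ganglia of rats A, B and E had 1.97, 17.1 and 24.1 TPM, against 8.00, 3.80 and 21.6 TPM in control ganglia. The surgical side was thus the lower in 4 of 7 rats and higher in rats H, B and E, with overlapping groups. Its log2 difference over both times was -0.19 (SE 0.36, adjusted p = 1 by edgeR).

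Cacna2d2, an alpha2delta subunit prominent in the cerebellum, had 9.11, 4.75, 6.84 and 8.80 TPM in 8-week surgical ganglia of rats D, C, G and H, against 10.6, 10.3, 15.2 and 8.63 TPM in control ganglia. At 6 weeks the surgical ganglia of rats A, B and E had 1.14, 8.36 and 7.40 TPM, and the control ganglia 1.95, 1.12 and 5.38 TPM. On the log2 scale rat B had the largest difference between the sides, at 2.20, and the fitted difference over both times was near zero at -0.06 (SE 0.35, adjusted p = 1).

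**Figure D1:**
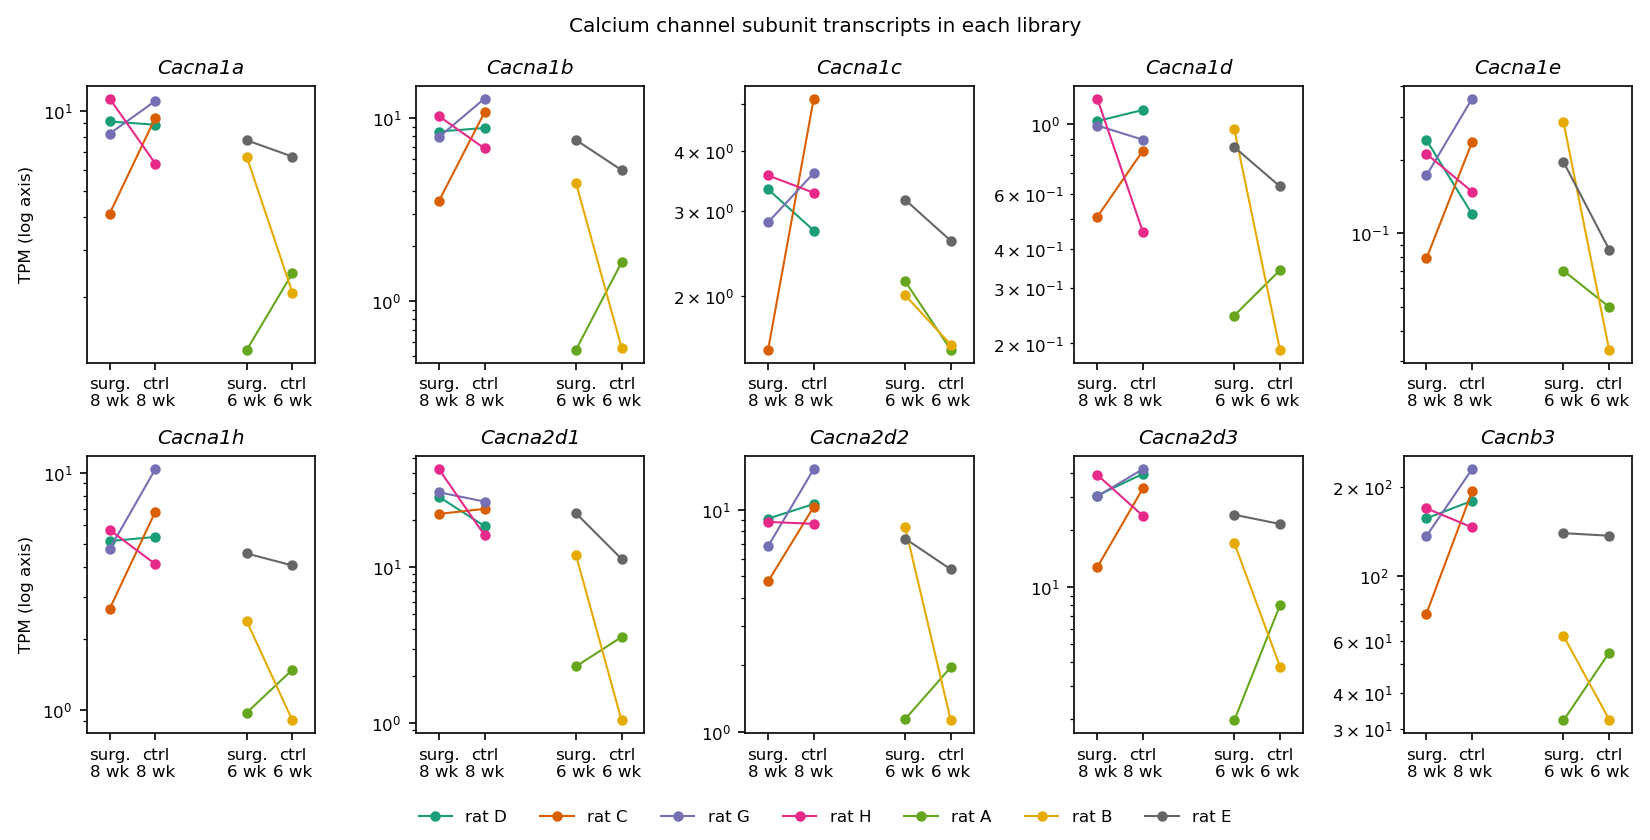
TPM of the 10 calcium channel subunit genes in each of the 14 libraries (log axes, one panel per gene), surgical (surg.) beside control (ctrl) at 8 weeks and at 6 weeks, with a line joining the libraries of each rat. Cacnb3 lies between 32.1 and 230.6 TPM and Cacna1e between 0.0334 and 0.356 TPM, and the lines of a rat slope alike in most panels.

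The 3 alpha2delta genes could be set against each other inside a library, which takes out whatever they share. Cacna2d1 made up 41.7%, 55.8%, 45.0% and 47.0% of their summed TPM in surgical ganglia of rats D, C, G and H, against 26.8%, 35.2%, 31.5% and 33.1% in control ganglia. In rats A, B and E its share was 42.7%, 32.1% and 41.3% in surgical ganglia, against 26.4%, 17.5% and 29.6% in control ganglia. In 7 of 7 rats the surgical side therefore had the larger share of Cacna2d1, by 15.1 percentage points on average (SD 2.79 over rats, range 11.8 to 20.5). Over the groups it averaged 43.7% (SD 7.11, n = 7) in surgical ganglia and 28.6% (SD 5.84, n = 7) in control ganglia, and only rat B lay within the control range on the surgical side. The mean difference was several times its SD between rats, and no test was made on this share, since the genes were chosen with these data known.

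Cacna2d3 took up the smaller share that this left. In 7 of 7 rats the surgical side had the smaller share, averaging 41.7% (SD 5.28) in surgical and 55.1% (SD 5.62) in control ganglia, a difference of -13.4 points (SD 6.46). The shares of the 3 genes sum to the whole, so these are not separate measurements. Cacna2d2 went both ways, with a mean difference of -1.67 points (SD 5.48). At 8 weeks 4 of 4 rats had a smaller share on the surgical side, at 11.3% (SD 1.72) in surgical and 16.7% (SD 1.54) in control ganglia. At 6 weeks it was 19.0% (SD 4.58) in surgical and 15.8% (SD 2.66) in control ganglia, higher in rats A and B and lower in rat E.

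Skeletal muscle also expresses Cacna2d1, as part of its own L-type channel, so the muscle markers are given beside this share. Their mean log2 CPM was 0.43, 11.02, 2.86 and 2.05 in surgical libraries of rats D, C, G and H, against 1.73, 2.11, 1.41 and 8.38 in control libraries. In surgical libraries of rats A, B and E it was 3.58, 1.48 and 6.28, against 3.14, 1.64 and 1.51 in control libraries. The muscle level was thus the higher on the surgical side in rats C, G, A and E and the lower in rats D, H and B. The difference of the Cacna2d1 share was 20.5, 13.5, 16.3 and 11.8 points in rats C, G, A and E, and 14.9, 13.9 and 14.6 points in rats D, H and B. Without rats B, C and H the mean difference was 14.1 points, and the part of muscle RNA in the share was not tested.

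The estimated transcript length behind the TPM also differed between the sides. The ratio of count to TPM, taken relative to the median gene of each library, had a mean surgical minus control difference of -0.13 on the log2 scale for Cacna2d1 (SD 0.10) and was lower in 7 of 7 rats, and the mean difference was -0.0079 for Cacna2d2 (SD 0.03) and -0.000385 for Cacna2d3 (SD 0.03). As a share of the summed counts of the 3 genes, which does not use that length, Cacna2d1 was 20.4% to 38.2% in surgical and 11.2% to 24.4% in control ganglia. That share was again higher in 7 of 7 rats, by 10.1 points (SD 1.82). By TPM the shares were larger on both sides, at 32.1% to 55.8% in surgical and 17.5% to 35.2% in control ganglia. Points by counts and by TPM are therefore not directly comparable. The tables are per gene, and transcript isoforms were not analysed here.

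**Figure D2:**
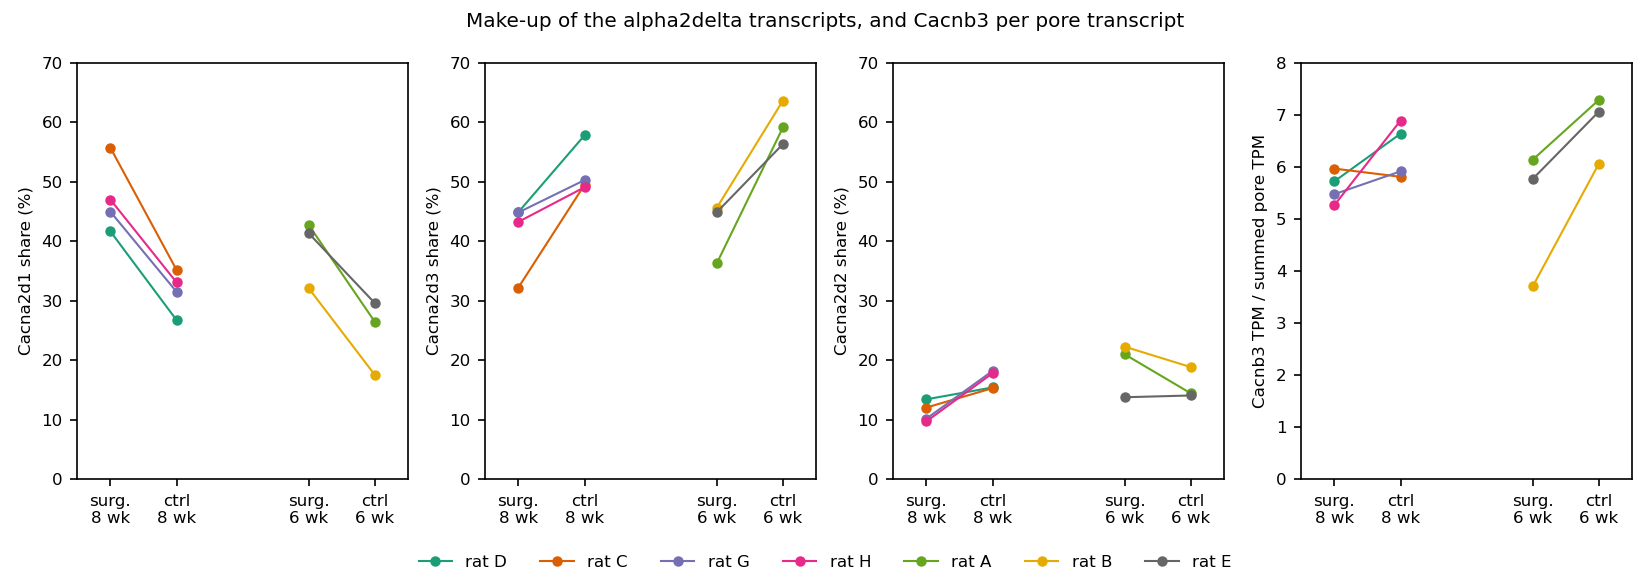
Shares of Cacna2d1, Cacna2d3 and Cacna2d2 in the summed alpha2delta TPM (percent, first 3 panels) and the ratio of Cacnb3 TPM to the summed TPM of the 6 pore genes (last panel), surgical beside control at each time, with a line joining the libraries of each rat. All 7 lines of Cacna2d1 run down towards control and all 7 of Cacna2d3 run up, while Cacna2d2 differs in direction between the times.

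The members followed the neuronal content of the library closely, with an exception. Across the 14 libraries, Pearson correlations of log2 CPM with the mean of the 16 neuronal markers were 0.99 for Cacna2d3, 0.99 for Cacna1b, 0.97 for Cacna1a, 0.93 for Cacnb3 and Cacna2d2, 0.92 for Cacna1h, 0.90 for Cacna2d1, 0.81 for Cacna1d and 0.61 for Cacna1e. These are descriptions over libraries that share rats and depth. Cacna1c, which heart, vessels and many other tissues also express, had a correlation of only 0.19, and its level lay between 1.54 and 5.13 TPM while neuronal markers varied far more. Its correlation with the smooth muscle and pericyte markers was 0.29, with myelinating Schwann cell markers 0.36, with macrophage markers -0.51 and with red blood cell genes -0.66. For Cacna1c the label of a neuronal gene was not borne out by its levels across these ganglia. Among the 45 pairs of members the median correlation was 0.80, and it ran from 0.03 to 0.97, with the lowest pairs involving Cacna1c.

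When the side difference of each rat was read relative to that of its neuronal markers, 7 of 7 rats had more Cacna2d1 in surgical ganglia. The differences in log2 CPM were 0.64, 0.99, 0.66 and 0.40 in rats D, C, G and H and 0.98, 1.17 and 0.84 in rats A, B and E, with a mean of 0.81 (SD 0.26). Without rat C the mean was 0.78 (SD 0.27). In rat A the Cacna2d1 difference before the subtraction was -0.72, close to those of Cacna1a (-0.72), Cacna2d2 (-0.70) and Cacnb3 (-0.70). Of all 17035 genes, 0.323% were higher in 7 of 7 rats on this measure and 0.0881% were lower in 7 of 7. The neuronal difference that was subtracted was -1.69 in rat A and 1.60 in rat B. A gene that does not follow the neuronal markers tends to get mixed signs from this. These shares over all genes therefore do not give the rate among neuronal genes. Without the neuronal reference, 0.458% of genes were higher in the surgical library of 7 of 7 rats, and no member was among them.

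Cacna1d was the other member higher in 7 of 7 rats relative to neuronal markers, with a mean of 0.51 (SD 0.46). Its differences were uneven, at 0.01 and 0.04 in rats D and B and 1.34 in rat A. Cacna2d3 stayed nearest to the neuronal markers, with a mean of -0.08 (SD 0.10) and a range of -0.23 to 0.01. The others ranged across zero, for example Cacnb3 with -0.18 (SD 0.68, lower in 6 of 7 rats), Cacna1b with 0.11 (SD 0.37) and Cacna1a with 0.20 (SD 0.38).

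The same was fitted across all genes, with the mean level of the neuronal markers as a covariate beside the rat. Cacna2d1 then had a log2 difference of 0.80 (SE 0.11) over both times, 1.00 (SE 0.15) at 6 weeks and 0.67 (SE 0.13) at 8 weeks. Its unadjusted p-values were 0.000108, 0.000468 and 0.00164, and its adjusted p-values in edgeR, over 17035 genes, were 0.612, 0.253 and 0.981. In this edgeR fit over both times Cacna1d was at 0.48 (SE 0.16, unadjusted p = 0.0170) and Cacnb3 at -0.25 (SE 0.09, unadjusted p = 0.0289), both with an adjusted p of 0.718. At an unadjusted p under 0.05 it had 1082 of 17035 genes and 3 members. The counts were 1914 genes and 4 members at 6 weeks, and 450 genes and 2 members at 8 weeks. Beside Cacna2d1, these were Cacna1b at 0.45 (SE 0.11), Cacna2d2 at 0.64 (SE 0.20) and Cacna1e at 1.36 (SE 0.47) at 6 weeks. At 8 weeks the other was Cacnb3 at -0.33 (SE 0.12). The difference of Cacna2d1 exceeded its error several times over, and neither it nor any other member passed the threshold over all genes.

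**Figure D3:**
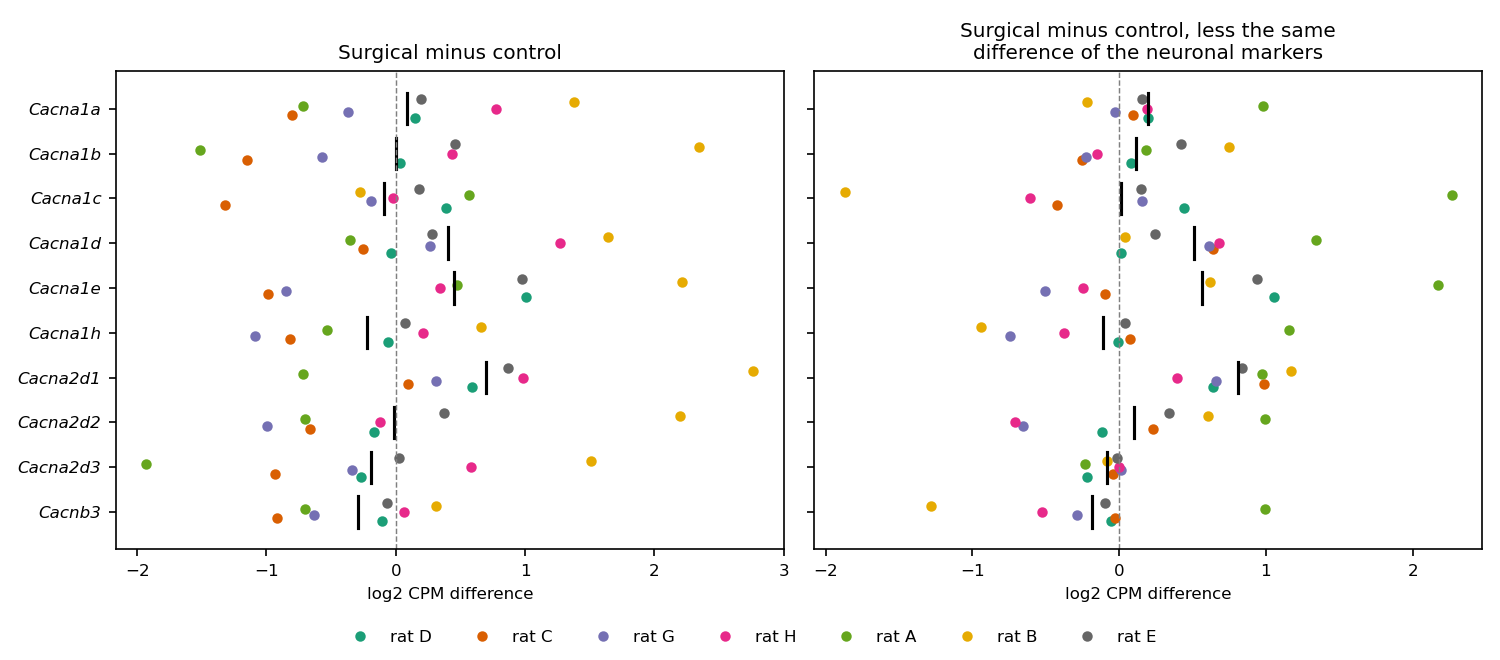
Surgical minus control difference in log2 CPM in each of the 7 rats (points; colours name the rat) and their mean (black bar) for each member, as measured (left) and less the difference of the mean of the 16 neuronal markers in the same rat (right). On the right the 7 points of Cacna2d1 lie between 0.40 and 1.17 and those of Cacna2d3 between -0.23 and 0.01, while Cacna1c spreads from -1.87 to 2.27.

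Over both times, the side differences of the 6 pore genes ranged from -0.22 to 0.47 in log2, and none passed the threshold. Cacna1a, the P/Q-type pore of fast transmitter release, had 9.16, 4.11, 8.24 and 11.2 TPM in surgical ganglia of rats D, C, G and H, against 8.90, 9.47, 10.9 and 6.34 TPM in control ganglia. At 6 weeks it had 1.26, 6.74 and 7.78 TPM in surgical ganglia of rats A, B and E, against 2.45, 2.07 and 6.75 TPM in control ganglia. Its groups overlapped widely, and the log2 difference over both times was 0.08 (SE 0.27, adjusted p = 1).

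Cacna1b, the N-type pore that ziconotide blocks, had 8.48, 3.53, 7.89 and 10.3 TPM in surgical ganglia of rats D, C, G and H, against 8.86, 10.8, 12.8 and 6.85 TPM in control ganglia. At 6 weeks it had 0.542, 4.45 and 7.63 TPM in surgical ganglia of rats A, B and E, against 1.63, 0.558 and 5.21 TPM in control ganglia. Rats B and A differed in opposite directions, as their neuronal markers did, and the difference over both times was -0.03 (SE 0.42). Cacna1h, the T-type pore most abundant in sensory neurons, ranged from 0.974 to 5.73 TPM in surgical and 0.904 to 10.3 TPM in control ganglia, with a difference of -0.22 (SE 0.21).

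The L-type genes and Cacna1e were lower in level. Cacna1d had 1.02, 0.507, 0.992 and 1.21 TPM in surgical ganglia of rats D, C, G and H, against 1.11, 0.825, 0.893 and 0.453 TPM in control ganglia. Its 6-week levels were 0.246, 0.965 and 0.846 TPM in surgical ganglia of rats A, B and E, against 0.343, 0.191 and 0.634 TPM in control ganglia. By log2 CPM 4 of 7 rats had more of it in surgical ganglia, with a difference over both times of 0.40 (SE 0.28, unadjusted p = 0.191). Cacna1c had 3.33, 1.54, 2.84 and 3.55 TPM in surgical ganglia of rats D, C, G and H, against 2.73, 5.13, 3.59 and 3.27 TPM in control ganglia. In surgical ganglia of rats A, B and E it had 2.14, 2.01 and 3.16 TPM, against 1.54, 1.58 and 2.60 TPM in control ganglia. Relative to its mean, its level varied less between libraries than those of the other pore genes, and the side difference was -0.09 (SE 0.22). Cacna1e, at 0.0704 to 0.285 TPM in surgical and 0.0334 to 0.356 TPM in control ganglia, differed by 0.47 (SE 0.44), on 6 to 54 counts per library.

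As parts of the summed pore TPM, Cacna1a and Cacna1b had similar mean proportions on both sides with the times pooled. Cacna1a made up 32.9% (SD 4.74) in surgical and 32.2% (SD 3.81) in control ganglia, and Cacna1b 27.3% (SD 7.76) in surgical and 27.1% (SD 8.44) in control ganglia. At 8 weeks Cacna1a was higher in surgical ganglia in each rat, at 33.6% (SD 0.79) against 29.8% (SD 2.18). Cacna1b was then lower in each rat, at 30.8% (SD 1.65) in surgical and 32.6% (SD 0.27) in control ganglia. The 6-week means went the other way, at 32.1% (SD 8.03) in surgical and 35.4% (SD 3.09) in control ganglia for Cacna1a. For Cacna1b they were 22.8% (SD 11.1) and 19.7% (SD 8.44). In 6 of 7 rats Cacna1h took a smaller share in surgical ganglia, at 18.4% (SD 2.21) in surgical and 20.6% (SD 2.93) in control ganglia, and rat C was the exception. Cacna1d was higher in 6 of 7 rats, at 4.21% (SD 0.77) in surgical and 3.20% (SD 0.94) in control ganglia, with rat D the exception. The largest departures were those of Cacna1c, which reached 41.0% in the surgical ganglia of rat A and 29.6% in the control ganglia of rat B, the 2 libraries with the lowest neuronal markers. In those libraries Cacna1b made up only 10.4% and 10.5%.

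**Figure D4:**
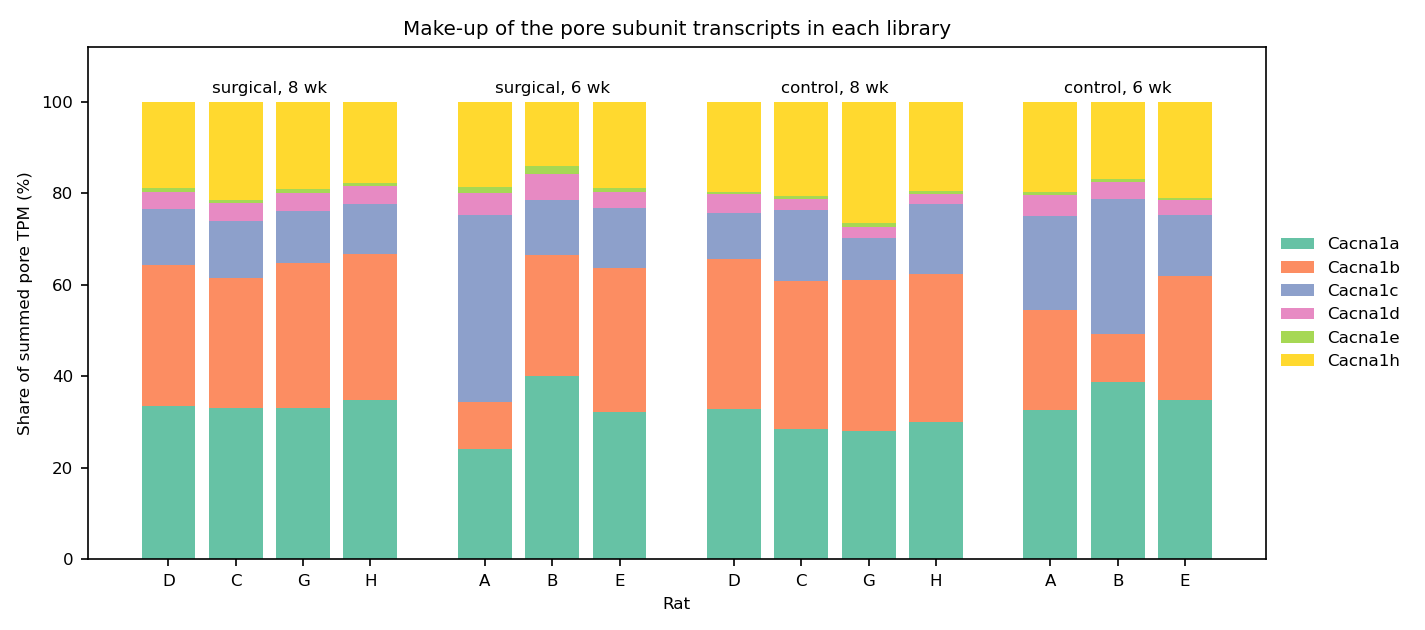
Share of each of the 6 pore genes in their summed TPM (percent, stacked bars from 0 to 100), one bar per library, grouped by side and time and labelled by rat. Cacna1a and Cacna1b lead in most bars, and the Cacna1c segment is widest in surgical rat A (41.0%) and control rat B (29.6%).

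Cacnb3 had 156.7, 74.3, 136.4 and 169.4 TPM in 8-week surgical ganglia of rats D, C, G and H, against 179.9, 193.6, 230.6 and 146.0 TPM in control ganglia. Its 6-week levels were 32.1, 62.3 and 139.5 TPM in surgical ganglia of rats A, B and E, against 54.7, 32.4 and 136.7 TPM in control ganglia. By TPM, surgical ganglia were lower in rats D, C, G and A, and the groups overlapped. The edgeR log2 difference was -0.29 (SE 0.18, unadjusted p = 0.130, adjusted p = 1).

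Set against the pore genes, the auxiliary subunits differed from each other. The ratio of Cacnb3 to summed pore TPM was 5.44 in surgical ganglia (SD 0.82, n = 7) and 6.53 in control ganglia (SD 0.59, n = 7), lower in 6 of 7 rats, and rat C was the exception at 5.97 in surgical and 5.81 in control ganglia. On the log2 scale the mean difference was -0.28 (SD 0.24), about as large as its spread between rats. The ratio of summed alpha2delta to summed pore TPM was 2.38 (SD 0.68) in surgical and 1.98 (SD 0.45) in control ganglia, with a mean log2 difference of 0.23 (SD 0.56), higher in 5 of 7 rats. That difference was smaller than its spread, and without rats B, C and H it was -0.08. These ratios mix genes of unlike length, with the pore genes above the 96th percentile of relative transcript length and Cacna2d1 at the 41.1st, and the correlation of gene-centred log2 CPM with length ran from -0.23 to 0.20 over the libraries.

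No gene of 17035 passed the threshold between the sides in edgeR, which is 0% over both times, 0% at 8 weeks and 0% at 6 weeks, and 0 of the 10 members did. At an unadjusted p under 0.05 edgeR had 412, 180 and 546 genes in these comparisons and no member, and DESeq2 called 6, 4 and 44 genes with no member among them. At an unadjusted p under 0.05 DESeq2 had 751, 351 and 837 genes. The members among these were Cacna2d1 over both times (DESeq2 unadjusted p = 0.0483) and Cacna1e at 6 weeks (DESeq2 unadjusted p = 0.0366). At 8 weeks 2 of 10 members had positive log2 differences, Cacna2d1 at 0.50 (SE 0.47) and Cacna1d at 0.31 (SE 0.39), and the median was -0.26. At 6 weeks 8 of 10 were positive, with a median of 0.36, Cacna1e at 1.36 (SE 0.60, unadjusted p = 0.0543) and Cacna2d1 at 0.96 (SE 0.60). The median over all genes was 0.01 at 8 weeks and -0.01 at 6 weeks. The difference of the side effects, 8 against 6 weeks, was negative for 10 of 10 members, between -1.50 and -0.13, but the smallest unadjusted p was 0.0909 and 0% of genes passed (252 at an unadjusted p under 0.05, and 5 by DESeq2). Over all genes 54.7% were positive. The sign of this difference rested on rat B, without which 5 of 10 members were positive and the median was 0.09, against -0.45 with it, and without rats B, C and H 6 of 10 were positive. At 6 weeks the direction rested on rat B: without it Cacna1a, Cacna1b, Cacna1d, Cacna1h and Cacna2d2 turned negative.

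The times could be compared on each side only between different rats. On the control side all 10 members were higher at 8 than at 6 weeks, with a median log2 difference of 1.12, where the median over all 16346 genes was -0.06. Cacna2d2 had 1.49 (SE 0.38, adjusted p = 0.0960 by edgeR), Cacna1b 1.56 (SE 0.54, adjusted p = 0.127) and Cacna2d1 1.53 (SE 0.54, adjusted p = 0.128). Cacna1e had 1.38, Cacna1h 1.13, Cacna2d3 1.11, Cacna1a 0.97 and Cacnb3 0.84. Cacna1d at 0.56 (SE 0.37) and Cacna1c at 0.36 (SE 0.22) differed least.

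No member passed the threshold on the control side, where 0.153% of genes did (25 genes, 3 higher and 22 lower at 8 weeks). At an unadjusted p under 0.05, 8 of 10 members were higher at 8 weeks, which 13.9% of genes also were. DESeq2 called 6 members higher (Cacna1a, Cacna1b, Cacna1h, Cacna2d1, Cacna2d2 and Cacna2d3), as it did 9.57% of genes. These counts depended on single rats. Without rat E, edgeR called 7 members and 6388 genes, and with any other rat left out it called 0 members and at most 1 gene. The number of members at an unadjusted p under 0.05 was 1 without rat A, 3 without rat B, 5 without rat C and 3 without rat G, against 8 with all rats, although 10 of 10 stayed higher at 8 weeks each time. For 4 members, Cacna1b, Cacna1e, Cacna2d1 and Cacna2d2, each 8-week control library was above each 6-week control library, which held for 11.8% of genes.

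The neuronal markers differed along with them, at a mean log2 CPM of 8.22 (SD 0.32, n = 4) in 8-week and 6.96 (SD 1.05, n = 3) in 6-week control ganglia, with rat B at 5.90. With these markers as a covariate the control-side differences were smaller, at 0.66 (SE 0.18) for Cacna2d2, 0.45 (SE 0.25) for Cacna2d1, 0.38 (SE 0.14) for Cacna1b, 0.18 (SE 0.14) for Cacna2d3 and 0.09 (SE 0.11) for Cacnb3, and -0.17 (SE 0.38) for Cacna1d. None passed the threshold, and the smallest adjusted p of a member was 0.325. The myelinating Schwann cell list was lower at 8 weeks, at 7.60 (SD 0.38) in 8-week and 8.64 (SD 0.31) in 6-week control ganglia. The macrophage list was lower as well, at 3.91 (SD 0.46) in 8-week and 5.07 (SD 0.71) in 6-week control ganglia. Over the 14 libraries the correlations of the members with the macrophage list ran from -0.92 (Cacnb3) to -0.51 (Cacna1c), and those with the Schwann cell list from -0.70 (Cacna2d1) to 0.36 (Cacna1c). The part of these cell types in the result was not tested.

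On the surgical side 8 of 10 members were higher at 8 than at 6 weeks, with a median of 0.56, and 0% of 16606 genes passed (1089 at an unadjusted p under 0.05, and 8 by DESeq2, with no member in either count). Cacna2d1 had the largest difference, 1.03 (SE 0.56, adjusted p = 0.671), and 0.43 (SE 0.23) with the neuronal covariate. Cacna1c at -0.10 (SE 0.27) and Cacna1e at -0.24 (SE 0.48) were lower at 8 weeks. The comparisons of the times use the same libraries as those of the sides.

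**Figure D5:**
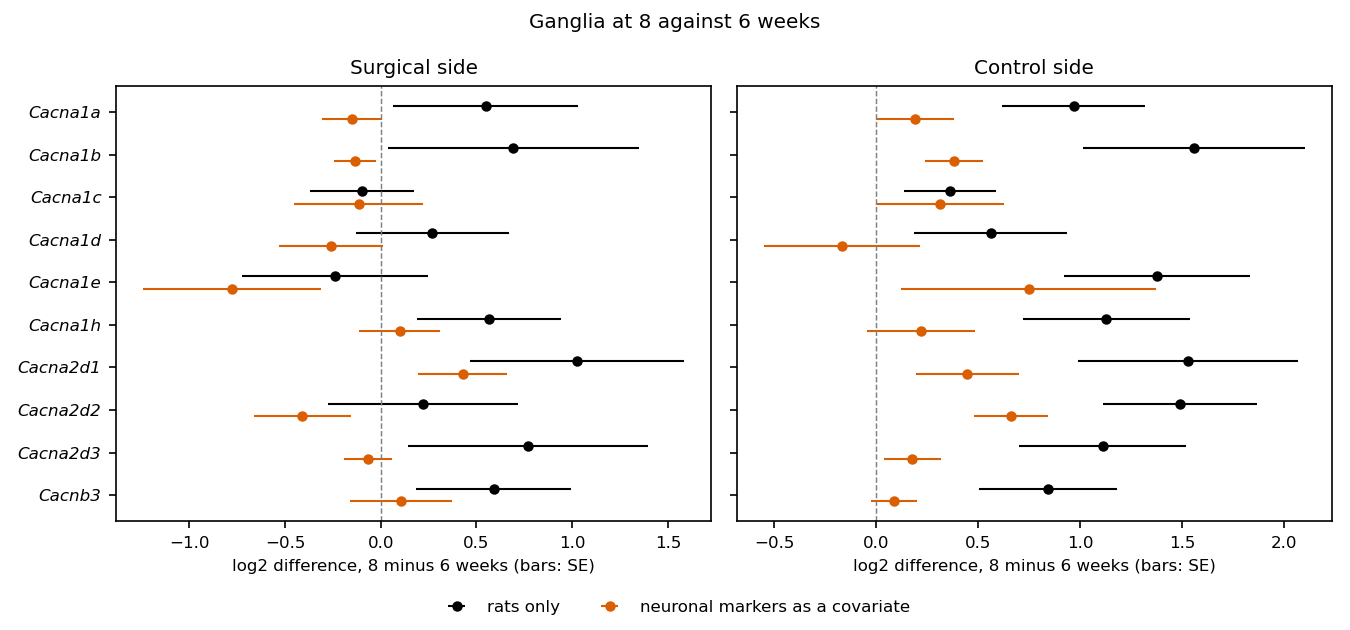
Log2 difference (8 minus 6 weeks, points, with bars of 1 SE) of each member on the surgical side (left) and on the control side (right), fitted without (black) and with (orange) the mean of the neuronal markers as a covariate. On the control side the 10 black points lie between 0.36 and 1.56, and with the covariate the points lie between -0.17 and 0.75.

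Other genes of the channel complex and its surroundings were taken from lists, and 0 genes of any list passed the threshold between the sides. Over both times 50.1% of all genes were positive, for comparison with the counts below. Of 16 further channel subunits 15 were tested, 11 were positive over both times and their median was 0.17. The most abundant of them were Cacng7 at 43.2 TPM and Cacng2 at 15.9 TPM, relatives of the muscle gamma subunit of which Cacng2 (stargazin) is known as a partner of AMPA receptors, and Cacnb1 at 13.0 TPM. Cacna1s and Cacng1, the pore and gamma subunits of the skeletal muscle channel, reached 54.6 and 65.1 TPM in the rat C surgical library, which held the muscle transcripts, while their medians over the libraries were 0.122 and 0.132 TPM.

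The channel regulators, 13 genes in 14 rows since Calm2 names 2 rows, were positive in 3 rows, with a median of -0.12. Stac2, whose protein binds L-type channels and slows their inactivation, averaged 4.57 TPM in surgical ganglia (SD 4.29, n = 7), against 0.297 TPM in control ganglia (SD 0.09, n = 7), and 7 of 7 rats had more of it in surgical ganglia. Its log2 difference was 3.36 (SE 0.61, unadjusted p = 0.000435, adjusted p = 1). Stac3, the muscle member of that family, had 1.57 (SE 1.77), Stac -0.33 (SE 0.33) and Rem1, a small GTPase that inhibits calcium channels, -0.83 (SE 0.41).

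Of the transmitter release machinery 14 of 15 genes were tested, with 10 positive and a median of 0.10. At 8 weeks 0 of 14 were positive (median -0.18), and at 6 weeks 12 of 14 (median 0.48). On the control side 14 of 14 were higher at 8 than at 6 weeks, with a median of 1.32. Over all genes 51.0% were positive between the sides at 8 weeks and 49.0% at 6 weeks, and 46.5% were higher at 8 weeks on the control side. The part of neuronal content and of rat B in these counts was not tested. Rimbp2 and Bsn, active zone proteins, had 0.28 (SE 0.36) and 0.28 (SE 0.47), Vamp2 had -0.25 (SE 0.19) and Stx1a, a SNARE protein that binds N-type channels, -0.34 (SE 0.29). Of 6 reported alpha2delta partners 2 were positive, with Comp at 0.18 (SE 0.49), Thbs2 at 0.05 (SE 0.45), Thbs3 at -0.18 (SE 0.35) and Thbs4, a thrombospondin, at -0.42 (SE 0.44). Among 19 calcium pumps, exchangers and store genes 13 were positive, with a median of 0.10. Atp2b4, a plasma membrane calcium pump, averaged 6.57 TPM in surgical ganglia (SD 2.04) and 4.71 TPM in control ganglia (SD 1.15), higher in 6 of 7 rats, with a difference of 0.43 (SE 0.17, unadjusted p = 0.0345, adjusted p = 1). The exchangers Slc8a3 and Slc8a2 had 0.50 (SE 0.56) and -0.15 (SE 0.15), and Stim2, a calcium sensor of the endoplasmic reticulum, -0.10 (SE 0.14).

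The genes most like each member were found by the Pearson correlation of log2 CPM over the 14 libraries, among 13863 genes with at least 1 TPM on average. Dennd1b (r = 0.97), Pip4k2b and Tln2 were nearest to Cacna2d1. Nearest to Cacna2d3 were Dync1i1 (r = 0.997), Elp2 and Syp, and to Cacna2d2 Tppp (r = 0.99), Srcin1 and Fbxo41. Cacnb3 was nearest to Pcbp4 (r = 0.98), Gdpd5 and Lxn. Among the pore genes, Cacna1a was nearest to Fbxo25 (r = 0.99), Fbxw11 and Kif5a, Cacna1b to Hcn3 (r = 0.997), Adam11 and L1cam, and Cacna1h to Pknox2 (r = 0.99), Pde2a and Abtb2. Cacna1d was nearest to Asic2 (r = 0.96), Cux2 and Igdcc4, Cacna1e to Amer2 (r = 0.90), Kcnk3 and Cachd1, and Cacna1c to Kcna5 (r = 0.88), Rdh11 and Cpne8.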

How the data were processed

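RNA of dorsal root ganglia L2 to L5 was sequenced in 14 libraries, a surgical and a control library from each of 7 rats. Rats were lettered by sample title, in which C and D are swapped relative to the column names without breaking a pair. Rat C is titled replicate 1 for its surgical library and was taken as replicate 2. Per the labels the molecule was polyA RNA, while the same labels' protocol named ribosomal depletion with an NEB kit. Per the submitters' processing notes, reads went through FastQC, Trim Galore and Salmon, with DESeq2 for expression analysis, and no version, genome build or strand setting was given. The authors deposited estimated counts (whole numbers, summing to 18489118 to 28237574 per library) and TPM per gene, which is scaled by the transcript length estimated in each library.

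Estimated counts were tested with edgeR 4.0.16 (R 4.3.3, quasi-likelihood, TMM, filterByExpr at 10 counts, robust dispersion), two-sided, with Benjamini-Hochberg adjustment over all genes tested and a threshold of 0.05. The sides were compared blocked by rat, in a fit of all 14 libraries, since the labels give both sides of each rat. As a check of the pairing, the correlation between the 2 libraries of a rat, each taken as the deviation from its group mean over 17035 genes, ran from -0.41 in rat C to 0.75 in rat E. It was negative in rats D, C, H and B. Only in rat E was the control library most like the surgical one, among rats of the same time, from the same rat. The pairing thus rests on the labels and was not borne out by this check. The times were compared between rats. SE was the log2 difference divided by the root of its F statistic, log2 CPM used a prior count of 2, and TPM values, shares and ratios are as deposited or summed from them. The scripts were tested on simulated data. Also run were DESeq2 1.42.0, edgeR with the size factors of DESeq2, no filter, limma 3.58.1 on log2(TPM + 1) or log2(TPM + 0.1) for genes of at least 0.5 TPM, no block, a neuronal marker covariate, removal of rats B, C and H, removal of a lowess trend (span 0.3) with transcript length, and each rat left out in turn. Shares of counts were added after the data were seen. The members and gene lists were chosen with earlier results of these data known. All 10 members were named, and of each list the genes past the threshold or else the 2 highest and 2 lowest with at least 1 TPM. Promoters came from RefSeq (GRCr8).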

Additional observations from a re-analysis of the deposited data

Results flagged for a closer look

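In 43 groups of 4 to 7 values, 3 held a value far from the others. Chance alone flags about 1 group in 20, so a count of 3 is near that rate, and the groups share libraries. Relative to the neuronal markers, the side difference of Cacna1a in rat A was 0.98 in log2 CPM, while the other 6 rats lay between -0.22 and 0.20. This was not particular to Cacna1a. In rat A the other members except Cacna1b (0.18) and Cacna2d3 (-0.23) lay between 0.975 (Cacna2d1) and 2.27 (Cacna1c) on this measure. The neuronal markers of rat A differed by -1.69 between the sides. In surgical ganglia at 8 weeks, Cacna1d was lowest in rat C, the library with the most muscle transcripts, at 2.04 log2 CPM, while the other 3 lay between 2.69 and 2.83. The side difference of Cacna2d2 was 2.20 in log2 CPM in rat B, whose surgical library held spinal cord markers and whose control library had few neuronal transcripts, while the other 6 rats lay between -0.997 and 0.374. The part of these library differences in the values was not tested.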

How the results depend on the processing

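No member was called between the sides, or at 8 against 6 weeks on the surgical side, under any setting run. Counts of all genes called that differed were 6 (both times), 44 (6 weeks), 4 (8 weeks), 5 (difference of sides), 3133 (control, 8 against 6 weeks, with 6 members) and 8 (surgical, 8 against 6 weeks) in DESeq2. Over the times limma called 8 genes (control) and 3 (surgical) with log2(TPM + 1), and 14 and 4 with log2(TPM + 0.1). Fitted with no replicate block, the 6-week sides had 2 genes called. On the control side the neuronal covariate gave 6, and removing rats B, C and H, or the length trend, gave 0. With each rat left out in turn, the control side had 0 to 6388 genes and 0 to 7 members called, the upper values without rat E. The side difference of the Cacna2d1 share was 10.1 points by counts, where it was 15.1 points by TPM. The control share was itself smaller by counts, at 11.2% to 24.4%, against 17.5% to 35.2% by TPM, so these points are not directly comparable.

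Signs of log2 differences turned in several settings, not only those of small ones, and the cause was not tested. Among those that turned, the main fit had Cacna2d2 at 0.61 (SE 0.51) and Cacna1d at 0.53 (SE 0.46) at 6 weeks. For 8 against 6 weeks it had Cacna1d at 0.56 (SE 0.37) on the control side and Cacna2d3 at 0.77 (SE 0.63) on the surgical side. Limma tested 9 members (Cacna1e was under 0.5 TPM) and, with log2(TPM + 1), put the median of all genes at 0.16 at 6 weeks and 0.45 for control 8 against 6 weeks, where edgeR had -0.01 and -0.06. There, at 6 weeks, Cacna2d3 was 0.16 and Cacnb3 0.068, and surgical 8 against 6 weeks Cacna1c 0.13. With log2(TPM + 0.1) these were 0.11, 0.069 and 0.16, and over both times Cacna1b was 0.019 and Cacna2d2 0.012. With no replicate block Cacna1b was 0.081 and Cacna2d2 0.045 over both times, and Cacna2d3 0.13 at 6 weeks. With the neuronal covariate, Cacna1b was 0.13 and Cacna2d2 0.072 over both times, Cacna1a 0.064 at 8 weeks, and 8 against 6 weeks Cacna1d -0.17 (control) and, in surgical ganglia, Cacna1a -0.15, Cacna1b -0.14, Cacna1d -0.26, Cacna2d2 -0.41 and Cacna2d3 -0.065. Without rats B, C and H, Cacna1c was 0.24 and Cacna1a -0.18 over both times. At 6 weeks Cacna1b was -0.49, Cacna1d -0.028, Cacna2d2 -0.15, Cacna1h -0.22 and Cacna1a -0.25, at 8 weeks Cacna1e 0.068 and Cacna1c 0.10, and surgical 8 against 6 weeks Cacna1e 0.41. With the length trend removed, Cacna1a was -0.0153 over both times and, at 6 weeks, Cacna1c -0.0587 and Cacna1h -0.16.

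With each rat left out in turn, ranges crossing zero over both times were -0.12 to 0.23 (Cacna1a), -0.37 to 0.22 (Cacna1b), -0.19 to 0.11 (Cacna1c), -0.37 to 0.11 (Cacna2d2) and -0.45 to 0.089 (Cacna2d3). At 6 weeks they were -0.25 to 0.78 (Cacna1a), -0.50 to 1.39 (Cacna1b), -0.046 to 0.38 (Cacna1c), -0.029 to 0.97 (Cacna1d), -0.22 to 0.36 (Cacna1h), -0.15 to 1.28 (Cacna2d2), -0.94 to 0.76 (Cacna2d3) and -0.38 to 0.12 (Cacnb3). At 8 weeks they were -0.34 to 0.18 (Cacna1a), -0.51 to 0.061 (Cacna1c), -0.00678 to 0.50 (Cacna1d) and -0.54 to 0.17 (Cacna1e). On the surgical side, 8 against 6 weeks, they were -0.36 to 0.056 (Cacna1c), -0.048 to 0.50 (Cacna1d), -0.54 to 0.12 (Cacna1e) and -0.21 to 0.57 (Cacna2d2).

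There were 3 and 4 rats per time, and the libraries differed in neuronal, muscle and spinal cord transcripts. The part of either in the lack of calls was not tested. Even side differences several times their SE were not called after adjustment over all genes tested. Over both times, with 7 rats, these included Stac2 at 3.36 (SE 0.61) and, with the neuronal covariate, Cacna2d1 at 0.80 (SE 0.11). A member that was not called may therefore still differ between the sides.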
